A study of Homo sapiens with 6 samples.

Results

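The genes described are those of the MYC, MAX and MXD network: MYC, MYCN, MYCL, MAX, MXD1, MXD3, MXD4, MXI1, MNT and MLX. They were chosen by symbol, and all 10 of the 10 were measured, each by 1 probe set (the group of probes that reads 1 gene), among 18377 genes in the table. Total RNA came from TF-1, a human erythroleukaemia line that depends on a cytokine and that the labels call an acute myeloid leukaemia line. The control cells carried the pEGFP vector (3 arrays, numbered 1 to 3), and the other cells carried human PRL-3, the tyrosine phosphatase encoded by PTP4A3 (3 arrays, numbered 4 to 6). Both groups grew in the same medium with serum and human interleukin-3, and the series asked about the part of PRL-3 in leukaemia. Whether each line was 1 clone or a pool, and whether a group's arrays stem from different cultures, is not in the labels. The p-values thus rest on the spread among these 6 arrays alone, and that spread may be technical.

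MYC, MYCN and MYCL are transcription factors that bind DNA as a pair with MAX, mostly at the E-box CACGTG, and drive growth, ribosome production and nucleotide synthesis. MXD1, MXI1, MXD3, MXD4 and MNT also pair with MAX at such sites, but recruit SIN3 and histone deacetylases and repress. MLX is a MAX-like partner of MLXIP and MLXIPL, which respond to glucose metabolites, and it also pairs with some MXD proteins and MNT. In blood cells MYC typically falls and MXD1 rises as myeloid progenitors mature.

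Because the network acts through the E-box, the promoters of its own genes were searched for the letters CACGTG, which read alike on both strands. RefSeq start sites (assembly GRCh38.p14, 250 bases before to 50 after the start) were matched for 9 of the 10 genes, all but MYC, with 12 start sites. MXD4, MNT and MLX held 1 CACGTG each, at 238, 193 and 50 bases before the start, and the other 6 genes held none in these windows. Of the 14210 tested genes with an entry 10.9% held it at any start site, as did 7.26% of all 35116 start sites. The stretches around the 3 E-boxes follow, 5′ to 3′ on the gene's strand, with the E-box in capitals. They lie at chr4:2262325-2262359 (minus strand), chr17:2401231-2401270 (minus strand) and chr17:42567033-42567072 (plus strand).

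MXD4: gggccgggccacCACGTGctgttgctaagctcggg
MNT: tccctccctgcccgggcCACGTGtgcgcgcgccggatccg
MLX: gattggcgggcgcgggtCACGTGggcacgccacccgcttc

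MYCN is shown because it was the 1 network gene that passed the test below. Its 250 bases before the start lie at chr2:15940300-15940549 (plus strand) and hold no CACGTG. They hold 1 copy of TTTGGCGC, one form of the E2F motif, 176 bases before the start and in capitals here. Of all start sites 0.652% held these letters on either strand of the 300 bases, as did 1.06% of tested genes at any start site. They are not particular to MYCN: MGA, a partner gene that fell, held them too. So did 9.09% of the MYC-activated targets described below that matched a start site. A match of letters is a description and not a binding site.

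MYCN: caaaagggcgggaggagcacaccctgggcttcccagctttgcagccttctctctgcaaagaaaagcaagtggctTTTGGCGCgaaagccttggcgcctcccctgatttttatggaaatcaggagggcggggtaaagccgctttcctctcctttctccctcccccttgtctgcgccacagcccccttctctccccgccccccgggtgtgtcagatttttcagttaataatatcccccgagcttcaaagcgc

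The deposited intensities had medians of 89.8 to 92.9 per array. PTP4A3 was at 7.92, 8.03 and 7.97 in control arrays and at 10.81, 10.93 and 10.79 with PRL-3 (log2 intensity), so the labels and the transfected gene went together. The 9 markers of erythroid and myeloid progenitors averaged 8.01 to 8.38 in control and 8.02 to 8.40 in PRL-3 arrays. These averages cover members that went opposite ways: KIT, the stem cell factor receptor, rose by 1.01 (log2, adjusted p = 0.000721, limma), and passed in all 6 fits without 1 array. The other 8 did not pass, with differences from -0.57 for CSF2RB and -0.44 for CD34 to 0.49 for IL3RA. Limma gave 5 of the 9 an unadjusted p under 0.05, against 20.2% of all genes. Of these 5, 2 were higher and 3 lower. The part of these markers in the results below was not tested. Over all 6 arrays 4 lymphocyte markers averaged 5.66 to 5.84, 4 fibroblast markers 5.68 to 5.83, 3 epithelial markers 5.97 to 6.23 and 2 endothelial markers 7.54 to 7.86. These averages too cover genes far apart. Gene means ran from 4.64 (LUM) to 7.25 (COL1A1) among the fibroblast markers, and from 6.3 (CDH5) to 9.11 (TEK) in the endothelial pair. One direction held 63.9% of the within-group variance over all genes, and on it control 1 and PRL-3 5 lay opposite to control 3. The number of arrays limits the precision.

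With PRL-3, MYCN rose, MYC was lower on average without passing the test, and the other 8 genes did not pass either. A gene passed when its adjusted p was under 0.05 (limma, two-sided, Benjamini-Hochberg over all 18377 genes). By this rule 1 of the 10 network genes was higher and 0 were lower, while 2 were higher and 0 lower at an unadjusted p under 0.05 in limma. Of all genes 4.58% were higher and 3.11% lower, 7.69% in all, and 20.2% had an unadjusted p under 0.05, so 1 and 2 of 10 are near the background. The median difference over the 10 genes was 0.012, against -0.015 over all genes (log2, PRL-3 minus control).

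**Figure D1:**
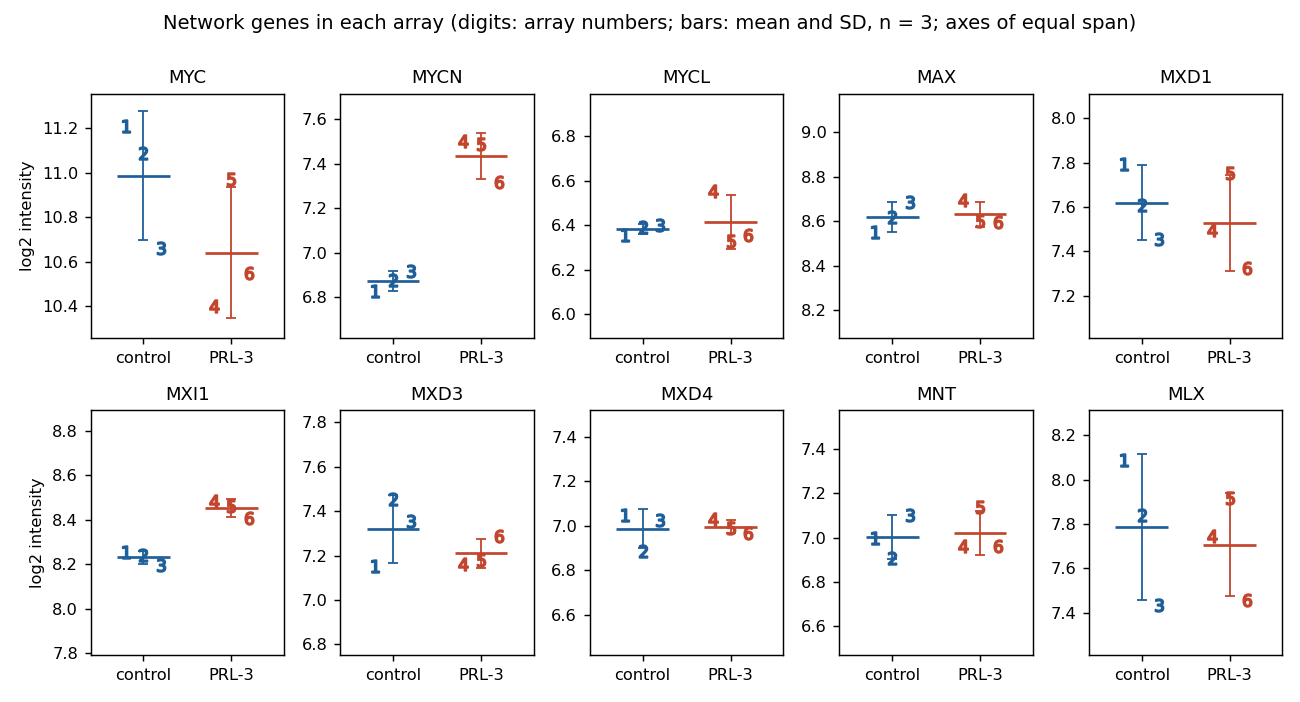
Log2 intensity of the 10 network genes in each array, control in blue and PRL-3 in red. Digits are the array numbers, bars give the mean and SD (n = 3), and every panel spans the same range on its axis. The groups do not overlap for MYCN and MXI1, and MYC, MXD1 and MLX vary most within groups.

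MYCN is best known from neural and embryonic tissue and can stand in for MYC. Its probe set read 6.83, 6.88 and 6.92 in the control arrays and 7.50, 7.49 and 7.32 with PRL-3 (log2 intensity). The control values lie near the median of all genes in those arrays (6.79 to 6.82), where the fibroblast marker COL1A1 read 7.05 to 7.37. No background level is known, so how much of the control values is MYCN transcript is not known. All 3 PRL-3 arrays lay above all 3 control arrays, with a gap of 0.40 between the groups. The means were 6.87 ± 0.046 and 7.44 ± 0.10 (SD, n = 3 each), a difference of 0.56 ± 0.076 (log2, SE) or 1.48-fold, with adjusted p = 0.0043 in limma. The exact two-sided permutation test of the 6 values gave p = 0.1, the smallest that 3 against 3 arrays can give. The call held in limma whichever single array was left out, at adjusted p of up to 0.0296, and was lost in an unequal-variance test of each gene on its own (adjusted p = 0.158). In RNA from a whole culture, a change in the share of cells that express a gene and a change in RNA per cell cannot be told apart.

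MYCNOS is transcribed from the opposite strand at the MYCN start and had a probe set of its own. It read 5.59 ± 0.095 in the control arrays and 5.48 ± 0.064 in PRL-3 arrays (SD, n = 3 each), a difference of -0.11 ± 0.076 with adjusted p = 0.504 in limma. Both means lie below the lower quartile of all genes (5.93), so this probe set may not read the transcript at all. Whether the labelled cDNA kept the strand is not given in the sources used here. The genes with profiles closest to MYCN over the 6 arrays, each profile centred on its mean, were TMT1A, PFN2 and CPM, at root mean square differences of 0.045, 0.049 and 0.053 (log2). Closeness over 6 arrays is a description only.

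MYC read 11.21, 11.09 and 10.66 in the control arrays and 10.40, 10.97 and 10.55 with PRL-3 (log2 intensity). The groups overlapped, since PRL-3 5 lay above control 3. The means were 10.99 ± 0.29 and 10.64 ± 0.30 (SD, n = 3 each), and the difference of -0.35 ± 0.18 (log2, SE; 95% interval -0.76 to 0.06) did not pass, at adjusted p = 0.337 in limma. The exact permutation test gave p = 0.2. Leaving out 1 array at a time gave differences from -0.52 (without PRL-3 5) to -0.23 (without PRL-3 4), and none of these fits passed.

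The MYC call depended on how the uneven arrays were treated. With array weights, which gave control 3 a weight of 0.365, PRL-3 5 a weight of 0.411 and control 2 a weight of 4.70, the MYC difference was -0.55 with adjusted p = 0.0054 in limma. With the within-group direction named above as a covariate, a fit chosen after seeing the data, it was -0.35 with adjusted p = 0.006 in limma. The weights and the covariate were both estimated from these 6 arrays. The direction was taken from values centred within each group, so as a covariate it cannot move a difference and acts only on the error. It held 92.2% of the within-group variance of MYC, so a smaller error was fixed in advance, and that p-value is no further support. The genes with profiles closest to MYC were PDPR, ASF1B and TOP3A, at root mean square differences of 0.042, 0.044 and 0.046 (log2). None of these 3 passed (adjusted p of 0.293, 0.44 and 0.247, limma).

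MYCL, the third MYC gene, read 6.36 to 6.40 in the control arrays and 6.33 to 6.55 in PRL-3 arrays, and the groups overlapped. Its values lie below the median of all genes in every array (6.78 to 6.82), and no background level is known. Its difference was 0.03 ± 0.079 (95% interval -0.15 to 0.21; adjusted p = 0.895, limma). MAX, the partner that MYC and MXD proteins share, read 8.55 to 8.69 in the control arrays and 8.60 to 8.70 in PRL-3 arrays. Its difference was 0.01 ± 0.07 with a 95% interval of -0.15 to 0.18 (adjusted p = 0.953, limma), and it turned sign under quantile normalization, to -0.0059.

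Among the repressors MXI1 was the 1 gene with groups apart. It read 8.25, 8.24 and 8.20 in the control arrays and 8.49, 8.46 and 8.41 with PRL-3 (log2 intensity), so that every PRL-3 array lay above every control array by at least 0.15. The difference of 0.22 ± 0.064 (SE) was 1.17-fold and did not pass (unadjusted p = 0.00829, adjusted p = 0.0823, limma; exact permutation p = 0.1). It passed with array weights (0.21, adjusted p = 0.0145, limma). It also passed with the within-group direction as a covariate (0.22, adjusted p = 0.0215, limma), which cannot move the difference. Together with MYCN this made 2 of 10 genes whose groups did not overlap, both with PRL-3 above. Over all genes the groups did not overlap in 24.3%, with PRL-3 above in 12.1%, so 2 of 10 is near the background.

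MXD1, the repressor that replaces MYC on MAX in maturing myeloid cells, read 7.79, 7.61 and 7.46 in the control arrays and 7.50, 7.76 and 7.33 with PRL-3. The groups overlapped, and the difference was -0.09 ± 0.13 (95% interval -0.38 to 0.20; adjusted p = 0.776, limma). MXD3, a member linked to S phase, ran from 7.15 to 7.45 in control and from 7.16 to 7.29 in PRL-3 arrays. The groups overlapped here too, and it differed by -0.11 ± 0.091 (interval -0.32 to 0.10; adjusted p = 0.588, limma).

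MXD4 ran from 6.89 to 7.05 in control and from 6.97 to 7.03 in PRL-3 arrays, a difference of 0.01 ± 0.071 (interval -0.15 to 0.17). MNT, a repressor found in dividing and resting cells alike, ran from 6.91 to 7.10 in control and from 6.96 to 7.14 in PRL-3 arrays, a difference of 0.02 ± 0.083 (interval -0.17 to 0.21). The adjusted p was 0.97 for MXD4 and 0.947 for MNT in limma, and the groups overlapped for both.

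**Figure D2:**
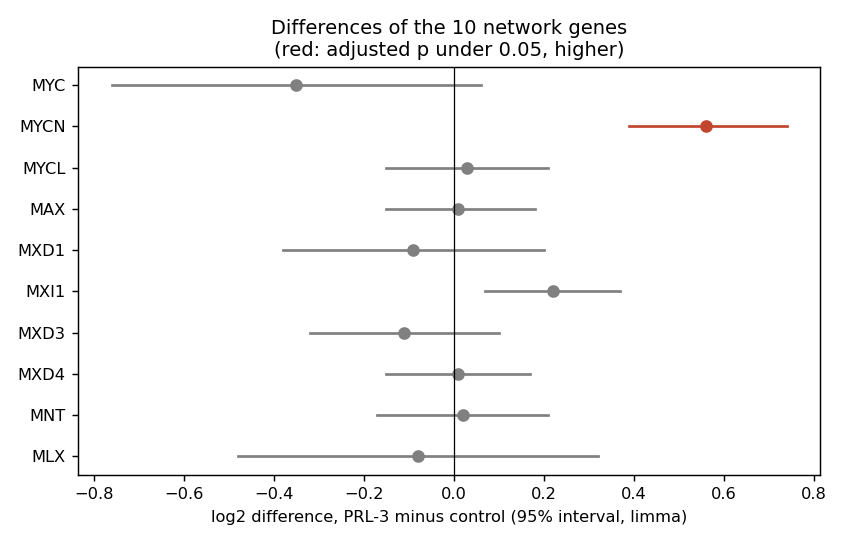
Log2 difference, PRL-3 minus control, of the 10 network genes with its 95% interval from limma (n = 3 arrays a group). MYCN, in red, passed at 0.56, and the intervals of MYC (-0.76 to 0.06) and MLX (-0.48 to 0.32) are the widest.

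MLX read 8.09, 7.84 and 7.44 in the control arrays and 7.75, 7.92 and 7.46 with PRL-3 (log2 intensity). The groups overlapped over most of their range, and the difference was -0.08 ± 0.17 (95% interval -0.48 to 0.32; adjusted p = 0.877, limma). MLXIP, its glucose-responsive partner, read 7.57, 7.27 and 7.02 in the control arrays and 7.05, 7.54 and 7.13 with PRL-3, a difference of -0.05 ± 0.17 (adjusted p = 0.926, limma). MLXIPL, the partner best known from liver, differed by -0.07 ± 0.089 (adjusted p = 0.735, limma).

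MGA, a MAX partner that belongs to a Polycomb complex and represses germ cell genes, was the 1 of the 3 other partner genes that fell. It read 9.53, 9.52 and 9.58 in the control arrays and 9.31, 9.14 and 9.15 with PRL-3, with all PRL-3 arrays below all control arrays. The difference was -0.34 ± 0.073 (log2, SE; adjusted p = 0.0274, limma), or 1.27-fold. Of the fits that left out 1 array it passed only in the one without PRL-3 4. Without control 1, control 2, control 3, PRL-3 5 or PRL-3 6 it was lost, at adjusted p of up to 0.114 in limma (without PRL-3 6). Of all genes 3.11% were lower, and 12.2% had all PRL-3 arrays below all control arrays. A list of 3 genes is too short to set against these shares.

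MYC, MXD1 and MLX, together with MLXIP, shared an array pattern that cut across the groups. Each was highest in control 1 and lowest in control 3 among the control arrays, and highest in PRL-3 5 among the PRL-3 arrays. This order was found in 3395 genes, or 18.5% of all, and in 3 of the 10 network genes. The within-group direction named above held 92.2% of the within-group variance of MYC, 90.0% of that of MXD1, 87.2% of that of MLX and 95.1% of that of MLXIP, against a median of 44.9% over all genes. It held 0.01% for MYCN and 36.9% for MXI1.

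**Figure D3:**
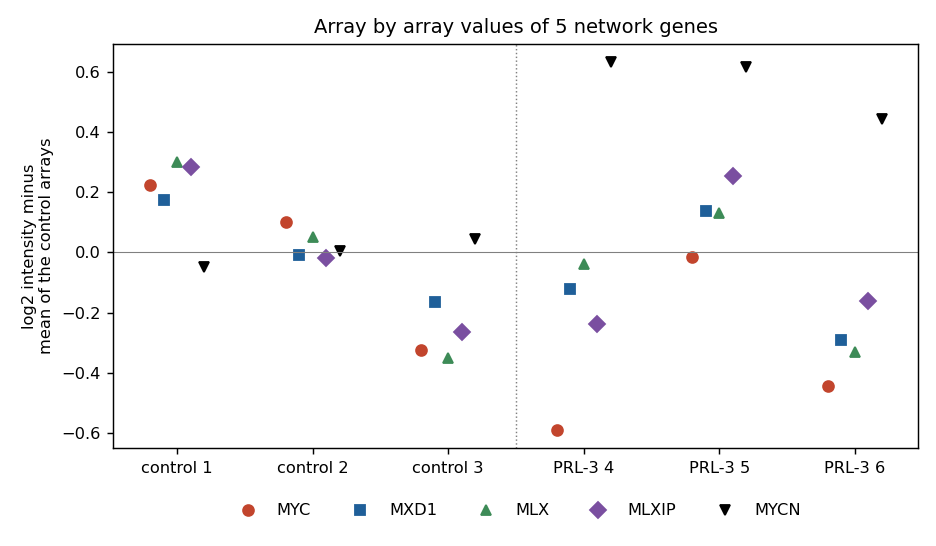
Log2 intensity minus the mean of the 3 control arrays for MYC, MXD1, MLX, MLXIP and MYCN in each array; points are single arrays. Within the control arrays MYC, MXD1, MLX and MLXIP are highest in control 1 and lowest in control 3, and within the PRL-3 arrays they are highest in PRL-3 5, where MYC is still below control 1 and control 2. MYCN separates the groups.

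Genes that control the network were described by lists of textbook members. Among 15 measured genes that act on MYC transcription or on MYC mRNA, 1 rose, 1 fell and 13 did not pass, with a median difference of -0.075. These are 6.67% in each direction, near the 4.58% higher and 3.11% lower over all genes. At an unadjusted p under 0.05 in limma 2 were higher and 4 lower. These are 13.3% and 26.7%, against 10.6% and 9.6% of all genes. IGF2BP1, a protein that binds and stabilises MYC mRNA, rose most: it read 6.05, 6.10 and 6.12 in the control arrays and 7.43, 7.77 and 7.45 with PRL-3. Its groups were far apart, and the difference was 1.46 ± 0.099 (log2, SE; 2.75-fold, adjusted p = 0.000225, limma). The control values lie close to the lower quartile of all genes (5.93) and no background level is known, so the fold may be a lower bound. CTCF, an insulator protein that binds upstream of MYC, fell by 0.28 on the log2 scale (adjusted p = 0.0474, limma). The CTCF call held without control 3 and was lost when any other single array was left out, at adjusted p of up to 0.177 in limma (without PRL-3 4).

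Of 21 genes of MYC protein turnover, 1 rose, 1 fell and 19 did not pass (median -0.031), which is 4.76% in each direction and near the shares over all genes (4.58% and 3.11%). At an unadjusted p under 0.05 in limma 2 were higher (9.52%, against 10.6% of all genes) and 4 lower (19%, against 9.6%). PPP2R5A, a regulatory subunit of the phosphatase PP2A, which removes a stabilising phosphate from MYC, rose by 0.35 (adjusted p = 0.0486, limma). BTRC, an F-box protein of a ubiquitin ligase, fell by 0.39 on the log2 scale (adjusted p = 0.0175, limma). Of the 6 fits without 1 array PPP2R5A passed in 1, the one without PRL-3 4, with adjusted p of up to 0.176 in limma (without PRL-3 6). BTRC passed in 2, those without control 3 and without PRL-3 5, with adjusted p of up to 0.0859 in limma (without PRL-3 4). FBXW7, the best known F-box protein for MYC, differed by 0.22 (adjusted p = 0.322, limma) and was named after its value was seen.

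Of 18 coactivators of MYC, 0 rose and 1 fell, with 0 higher and 6 lower at an unadjusted p under 0.05 in limma. The 1 of 18 (5.56%) is near the 3.11% of all genes that were lower, while the 6 are 33.3%, against 9.6% of all genes lower at that unadjusted p. The one that fell was WDR5, a chromatin protein that helps MYC to bind (-0.35, adjusted p = 0.0348, limma). The list's median was -0.17, and 14 of the 18 differences were below 0 (77.8%, against 54.9% of all genes). The median of the 18 genes in each array, relative to each gene's control mean, was 0.14, 0.05 and -0.18 in control and -0.24, -0.033 and -0.25 in PRL-3 arrays. Control 1 was high, control 3 low and PRL-3 5 high within its group, the same order as for MYC, and the groups overlapped. Without control 3 the count of coactivators that fell was 5, and with array weights it was 9. All genes lower then numbered 747 and 2303 of 18377, against 571 in the main fit. Coactivators that fell numbered 0 without control 1, control 2, PRL-3 4 or PRL-3 6, and 0 in the unequal-variance test.

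Of 14 SIN3 and histone deacetylase genes, which serve the MXD arm, 0 rose and 1 fell, with 2 higher and 2 lower at an unadjusted p under 0.05 in limma. The 1 of 14 (7.14%) is near the 3.11% of all genes that were lower, and the median was 0.062. The 2 and 2 are 14.3% each, near the 10.6% of all genes higher and 9.6% lower at that unadjusted p. RBBP4, a histone-binding subunit, fell by 0.31 on the log2 scale (adjusted p = 0.0241, limma). Of the 6 fits without 1 array WDR5 passed in those without control 3 and without PRL-3 5, and RBBP4 in the one without control 3. The highest adjusted p was 0.144 for WDR5 (without PRL-3 4) and 0.102 for RBBP4 (without control 2), both in limma.

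Textbook targets that MYC activates were lower more often than higher. Of 53 measured, 7 fell, 1 rose and 45 did not pass, so 13.2% were lower against 3.11% of all genes. At an unadjusted p under 0.05 in limma 13 were lower (24.5%, against 9.6% of all genes) and 2 higher (3.77%, against 10.6%). Below 0 were 38 of the 53 differences (71.7%, against 54.9% of all genes). The median was -0.093. By array, relative to each gene's control mean, the median of the 53 genes was 0.035, 0.0067 and -0.042 in control and -0.13, -0.022 and -0.10 in the PRL-3 arrays. PRL-3 5 lay above control 3, so on this measure the groups overlapped, in the same within-group order as for MYC. POLR1B, a subunit of RNA polymerase I, fell most: it read 9.10, 9.01 and 8.89 in the control arrays and 8.24, 8.37 and 8.27 with PRL-3. Its groups were apart, and the difference was -0.70 ± 0.08 (log2, SE; adjusted p = 0.00208, limma).

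TFRC, the transferrin receptor that takes up iron, read 12.75, 12.70 and 12.74 in the control arrays and 12.22, 12.17 and 12.22 with PRL-3. It fell by 0.52 on the log2 scale (SE 0.063, adjusted p = 0.00273, limma), and the groups were apart. NOP58, a core protein of box C/D small nucleolar particles, fell by 0.38, UMPS, which makes uridine monophosphate, fell by 0.37, and CTPS1, a cytidine triphosphate synthase, fell by 0.36 on the log2 scale, with adjusted p of 0.0144, 0.0255 and 0.0184 in limma. The gene that rose was PAICS, an enzyme of purine synthesis, from 9.22 ± 0.063 to 9.74 ± 0.071 (SD, n = 3 each; 0.51, adjusted p = 0.0049, limma). POLR1B, TFRC and PAICS passed in all 6 fits without 1 array, whereas NOP58, UMPS and CTPS1 were each lost without control 1, without PRL-3 4 and without PRL-3 6, UMPS and CTPS1 also without control 2, and UMPS also without PRL-3 5. The count of targets that fell was 2 without control 1, 3 without control 2, 2 without PRL-3 4 and 2 without PRL-3 6. It was 19 with array weights and 1 in the unequal-variance test, where 2303 and 4 of all genes were lower. Targets often used to read MYC activity did not pass: ODC1 differed by -0.14, NCL by 0.05, CDK4 by -0.21 and LDHA by -0.04, with adjusted p of 0.143 to 0.854 in limma. The NPM1 probe set lay below the lower quartile of all genes (means of 5.53 and 5.57), although NPM1 mRNA is abundant in most cells, and is not taken as a reading of NPM1. These 5 were named after their values were seen.

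**Figure D4:**
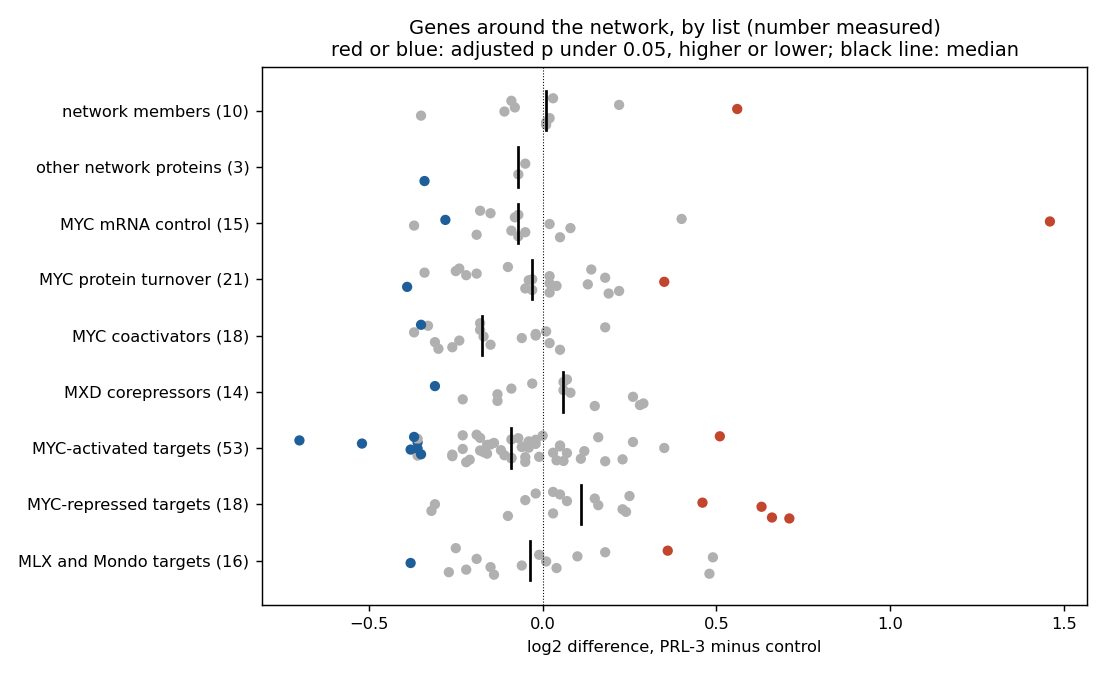
Log2 difference, PRL-3 minus control, of every measured gene in 9 lists; each point is 1 gene, red or blue where it passed, and the black line is the list's median. MYC-activated targets lean below 0 (median -0.093) and MYC-repressed targets above it (median 0.11).

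Genes that MYC is known to repress were higher more often than lower. Of 18 measured, 4 rose, 0 fell and 14 did not pass. The 4 are 22.2%, against 4.58% of all genes higher, and the median was 0.11. At an unadjusted p under 0.05 in limma 6 were higher (33.3%, against 10.6% of all genes) and 2 lower (11.1%, against 9.6%). The median of the 18 genes by array was 0.051, -0.041 and -0.024 in control and 0.12, 0.15 and 0.046 in the PRL-3 arrays. Control 1 lay above PRL-3 6, so the groups overlapped on this measure too, with control 1 and PRL-3 5 the highest of their groups. BTG1, which restrains proliferation, read 7.04, 6.88 and 7.16 in the control arrays and 7.57, 7.76 and 7.88 with PRL-3. The groups were apart, and the difference was 0.71 ± 0.11 (SE; adjusted p = 0.0064, limma). NDRG2 (0.66), NDRG1 (0.63) and GADD45A (0.46), all linked to growth arrest or stress, rose too, with adjusted p of 0.00441, 0.00881 and 0.00779 in limma. Without control 2 the count was 2, with NDRG1 and GADD45A lost, and in the unequal-variance test it was 0. The cell cycle inhibitors of the list that were not called include CDKN1A, which differed by 0.07, CDKN2B by 0.16 and CDKN1B by 0.24, with adjusted p of 0.145 to 0.786 in limma. These 3 were named after their values were seen.

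Of 16 targets of MLX and its partners, 1 rose, 1 fell and 14 did not pass, with a median of -0.031. This is 6.25% in each direction, near the 4.58% higher and 3.11% lower over all genes. At an unadjusted p under 0.05 in limma 3 were higher and 3 lower, 18.8% each, against 10.6% and 9.6% of all genes. ARRDC3, an arrestin-like protein, rose by 0.36 (adjusted p = 0.0316, limma), and PKLR, the liver and red cell pyruvate kinase, fell by 0.38 on the log2 scale (adjusted p = 0.0292, limma). Of the 6 fits without 1 array ARRDC3 passed in the one without PRL-3 5, and PKLR in those without control 3 and without PRL-3 5. The highest adjusted p was 0.134 for ARRDC3 (without PRL-3 4) and 0.131 for PKLR (without control 2), both in limma. TXNIP, a well known target of MLXIP, differed by -0.15 (adjusted p = 0.28, limma) and ARRDC4 by 0.01 (adjusted p = 0.967, limma); both were named after their values were seen.

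The E-box was then set beside the target values, as a description with no test. Of the 53 activated targets measured, 44 matched a RefSeq start site, and 21 of these 44 (47.7%) held CACGTG, against the 10.9% of tested genes given above. Among the 21, 0 fell and 1 rose, PAICS, with 3 lower and 2 higher at an unadjusted p under 0.05 in limma, and the median difference was -0.05. Among the 23 without it, 5 fell and 0 rose, with 8 lower and 0 higher at an unadjusted p under 0.05 in limma, and the median was -0.09. Of all genes 3.11% were lower, and at an unadjusted p under 0.05 in limma 9.6% were lower and 10.6% higher. The 5 were POLR1B, TFRC, UMPS, CTPS1 and UBTF, the last a factor that brings RNA polymerase I to ribosomal DNA and named after its value was seen. NOP58 and RRS1 (-0.36, adjusted p = 0.0236, limma) also fell, but matched no start site. Their promoters were not searched, so whether they hold CACGTG is not known here. POLR1B and TFRC passed in all 6 fits without 1 array, but UMPS passed in 1, CTPS1 in 2 and UBTF in 1, the last only without control 3. So 3 of the 5 calls were lost in most of these fits, and not through 1 array alone. Over all genes these fits called 178 to 747 lower, against 571 with all arrays. No match says only that these letters are not in the 300 bases searched.

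CDK4, APEX1 and LDHA are shown as targets with more than 1 E-box that did not pass, to set beside those that fell. APEX1, a DNA repair enzyme, differed by -0.22 (adjusted p = 0.473, limma), and LDHA by -0.04 (adjusted p = 0.809, limma). CDK4 differed by -0.21 (unadjusted p = 0.0201, adjusted p = 0.143, limma), with all PRL-3 arrays below all control arrays. It is thus 1 of the 3 targets with CACGTG that were lower at an unadjusted p under 0.05. The stretches lie at chr12:57752389-57752543 (minus strand), chr14:20455104-20455225 (plus strand) and chr11:18394361-18394498 (plus strand), with 3, 3 and 2 copies of CACGTG in capitals. The 3 genes were chosen for their E-boxes after their values were seen.

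CDK4: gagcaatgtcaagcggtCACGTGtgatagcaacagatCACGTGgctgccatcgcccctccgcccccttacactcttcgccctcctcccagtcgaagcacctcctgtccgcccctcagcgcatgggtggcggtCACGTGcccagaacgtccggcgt
APEX1: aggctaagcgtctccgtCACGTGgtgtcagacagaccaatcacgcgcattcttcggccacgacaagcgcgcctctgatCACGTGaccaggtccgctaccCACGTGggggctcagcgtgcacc
LDHA: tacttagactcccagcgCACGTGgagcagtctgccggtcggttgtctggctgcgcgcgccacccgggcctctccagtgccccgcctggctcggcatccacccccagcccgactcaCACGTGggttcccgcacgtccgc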

How the data were processed

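The deposited table held 1 linear intensity per probe set and array, which the authors had summarised by steps not given in the sources used here. Array medians lay close together, so the values were not normalized again, and a difference is set against the typical gene. The deposited intensities were put on a log2 scale without an offset. Of 28869 probe sets, 19310 had 1 gene symbol, 1752 several and 7807 none here. Of the first, 19279 matched a RefSeq gene (GRCh38.p14) by Entrez identifier, and per gene the brightest probe set over the 6 arrays was kept. All 10 network genes lay above the lower quartile of mean log2 intensity; no floor is known. The groups were tested with limma 3.58.1 (R 4.3.3), and the code was run on simulated data with independent noise. Those data lack the shared within-group direction of the real arrays, so that run says nothing on error rates here. Differences carry limma's moderated SE. The network genes, lists and tests were chosen with earlier results of these data known. All network genes, PTP4A3, MGA, MLXIP and MLXIPL were named, of other lists up to 6 members past the threshold with the largest differences, and the 3 closest profiles of MYC and MYCN. Alternatives were other scalings, variance models, filters, probe set rules and arrays left out. Figures used matplotlib 3.10.9.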

Additional observations from a re-analysis of the deposited data

How the results depend on the processing

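PTP4A3 and MYCN kept their direction in all 15 alternatives, and MYCN its call in 14. Array weights gave 2122 genes higher and 2303 lower, and the within-group direction as a covariate (a fit chosen after seeing the data) gave 1976 and 1805. By its construction the covariate cannot move a difference and acts only on the error. Network genes higher and lower numbered 2 and 1 with array weights and 2 and 1 with the covariate, MYC regulators 2 and 4, then 2 and 3, turnover genes 3 and 6, then 2 and 5, activated targets 4 and 19, then 4 and 16, repressed targets 6 and 2, then 7 and 2, MLX targets 3 and 7, then 3 and 4, and corepressors 2 and 2, then 3 and 2. Coactivators lower were 9 and 7. The unequal-variance test called 7 genes higher and 4 lower, with 0 network genes and 0 genes of the lists except 1 activated target that fell; it borrows no variance between genes. Quantile normalization gave 2 MYC regulators and 1 repressed target lower. An intensity trend with robust variances gave 0 MYC regulators lower, 0 turnover genes higher and 0 MLX targets higher, and without genes below the lower quartile 0 MYC regulators were lower.

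Leaving out 1 array gave 388 to 792 genes higher (fewest when control 2 was left out) and 178 to 747 lower (fewest for control 2, most for control 3), 0 to 1 partner genes lower, 0 to 2 MYC regulators lower, 0 to 1 turnover genes higher and 0 to 1 lower, 0 to 5 coactivators lower, 0 to 2 corepressors higher and 0 to 1 lower, 1 to 2 activated targets higher and 2 to 7 lower, 2 to 4 repressed targets higher and 0 to 1 lower, and 0 to 1 MLX targets higher and 0 to 2 lower. Without control 1 and PRL-3 5, added after seeing the data, 0 partner genes, 0 MYC regulators, 0 corepressors and 0 MLX targets were lower, 0 turnover genes and 2 MLX targets higher, and 2 activated targets higher and 3 lower. Near 0, differences turned sign: MAX under quantile normalization (-0.0059), without control 1 (-0.0198), without PRL-3 4 (-0.0184) and without control 1 and PRL-3 5 (-0.0043). MNT was -0.0293 without control 2, -0.0401 without PRL-3 5 and -0.0431 without control 1 and PRL-3 5. MXD4 was -0.0405 without control 2 and -0.0074 without PRL-3 4, MYCL -0.0391 without PRL-3 4, MXD1 0.0074 without PRL-3 6, and MLX 0.0702 without control 1 and 0.0454 without PRL-3 6. Over the fits without 1 array MAX reached 0.0476, MNT 0.0686, MXD4 0.0403, MYCL 0.0727, MXD1 -0.207 and MLX -0.256 at the other end of their ranges, and none of these passed. For changes of call other than those set by fewer arrays or by the test's construction, the cause was not tested. No paired analysis was possible because the control arrays are numbered 1 to 3 and the PRL-3 arrays 4 to 6.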
